A study of Homo sapiens with 9 samples.

Results

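Estrogen receptor target genes were followed in T47D cells, a human ER+ (estrogen receptor-positive) breast cancer line that depends on estrogen for growth. The set holds 35 genes known to respond to the receptor in luminal breast cancer, chosen by name and without the receptors themselves, of the 27635 gene symbols in the table. All 35 were in the table, and 33 were among the 16696 genes that passed a filter on low values (3 or more libraries with a TPM of 0.5 or above) and were tested. EGR3 and KCNK5 were below it and are given as values only.

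RNA was sequenced in 9 libraries, 3 in each of 3 conditions. In contact culture (CC), T47D cells grew together with HS5 cells, an immortalised human bone marrow stromal line, at 10% cancer cells to 90% stromal cells, and were recovered afterwards on beads that bind EpCAM. In conditioned medium (CMed), T47D cells grew alone in medium taken from HS5 cells, and in monoculture (MC) they grew alone. All 3 conditions shared 24 hours in full medium and then 48 hours in low-glucose medium without phenol red that held 1% FBS and 10 nM estradiol, so that the receptor's ligand was present in every culture, controls included. The labels describe bead recovery for co-cultures only, which leaves it confounded with contact, and each cell type is represented by 1 line. The labels do not state that the replicates were separate cultures, so that p values reflect only how far these libraries scatter, which may be technical.

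Estrogen diffuses into the cell and binds the estrogen receptor, a transcription factor that then settles on enhancers and promoters together with the pioneer factor FOXA1 and with GATA3. Coactivators gathered there raise the transcription of target genes, among them growth regulators, secreted proteins and the progesterone receptor. In luminal breast cancer these targets serve as a readout of receptor activity, and many of them fall when the ligand is withdrawn or the receptor is blocked.

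Values are given in TPM, an abundance scaled for transcript length and for the total of each library, so that levels of different genes can be set side by side. Differences (log2FC) are log2 fold changes between group means of log2(TPM + 1), a scale that understates the change of genes with a low TPM. Standard errors (SE) and adjusted p values (Benjamini and Hochberg, over all 16696 genes) come from limma, and a gene was called higher or lower at an adjusted p under 0.05. The estimates for the 33 genes in both cultures against monoculture are shown in the plot of fold changes, and their values by library in the colour map.

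Between 18166 and 21178 genes were listed above 0 per library. MC replicate 2 stood apart from its group. Pearson's r across all 27635 gene symbols was 0.939 and 0.942 between it and the other MC libraries. For all other pairs within a condition it was 0.956 to 0.972. The summed level of 13 proliferation genes was 652 TPM in MC replicate 2 against 1425 and 1452 TPM in the other MC libraries. It was 890 to 929 TPM in CC and 717 to 741 TPM in CMed. MC replicate 2 was thus the lowest library by this sum, and the other MC libraries were the highest. Results are therefore also given without MC replicate 2 where that changes a call. Of 20 luminal epithelial markers, 2 (MUC1 and KRT7) were higher and none lower in CC than in MC by limma (5 and 2 at an unadjusted p under 0.05), and EPCAM, the target of the beads, was at 160, 137 and 159 TPM in CC and 206, 168 and 195 TPM in MC (log2FC −0.31, limma adjusted p = 0.255). The summed level of 29 stromal markers was 72.1 to 89.0 TPM in CC, 38.8 to 45.3 TPM in CMed and 52.5 to 61.4 TPM in MC, with 2, 9 and 7 of the 29 listed at 0 in all libraries of those conditions. Of the 12 that were tested, 4 (VIM, FN1, CAV1 and PRRX1) were higher in CC than in MC. VIM was at 11.7, 6.28 and 9.20 TPM in CC, 0.374, 0.343 and 0.914 TPM in CMed and 1.25, 0.135 and 0.726 TPM in MC. The part of these stromal transcripts in the results was not tested, and in bulk RNA fewer cells of a type and less RNA per cell cannot be told apart.

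**Figure D1:**
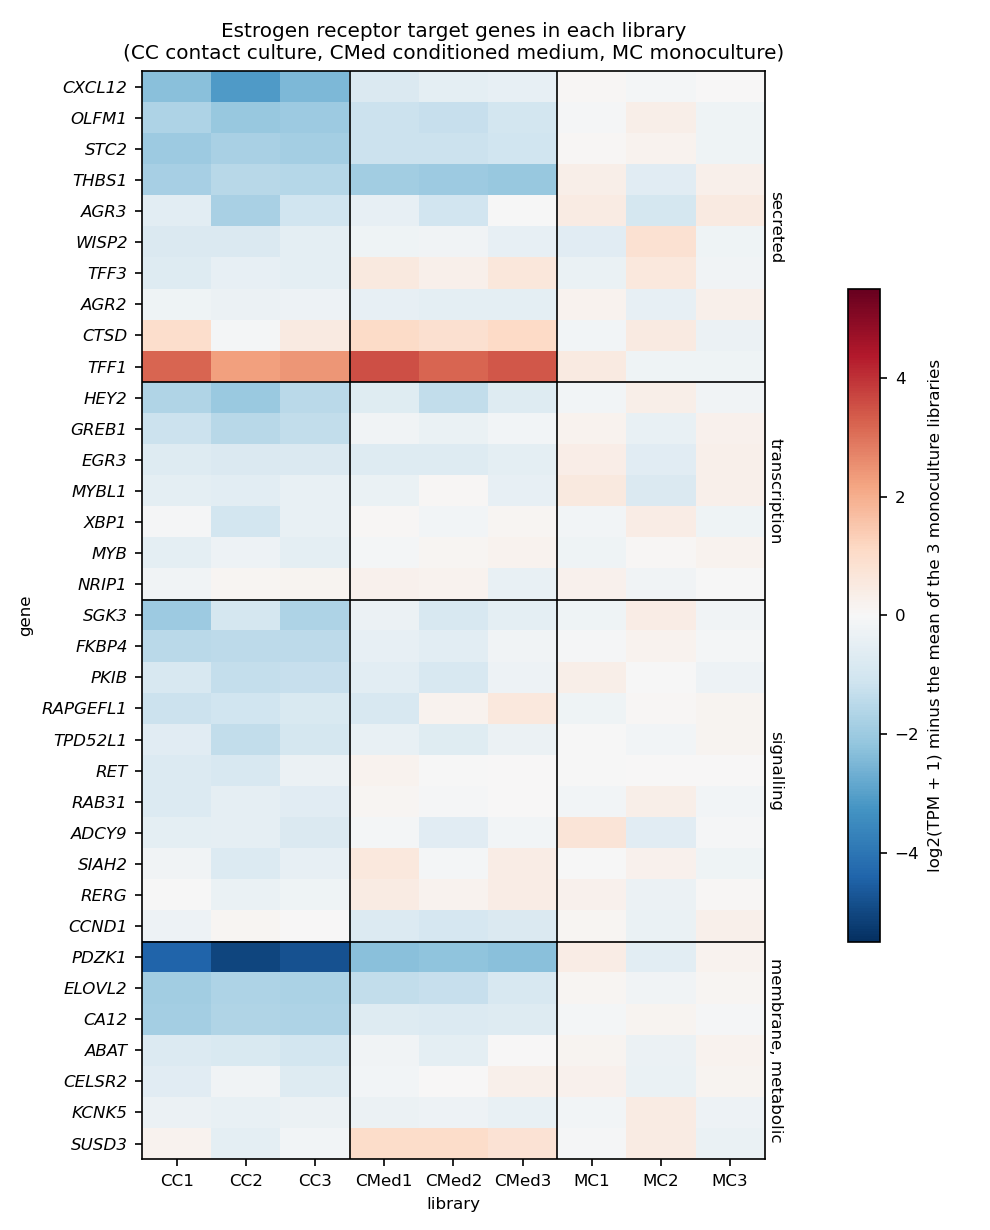
Colour map of the 35 genes (rows, grouped by role) in the 9 libraries (columns, contact culture, conditioned medium and monoculture from left to right). Colours give log2(TPM + 1) minus the mean of the 3 monocultures. PDZK1 has the deepest blue, in all 3 contact cultures, and TFF1 is the red row in both cultures with HS5 cells or their medium.

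In CC the estrogen receptor targets were mostly lower than in MC. Of the 33 tested, 13 were called lower and 1 higher. Over all genes tested, 4.99% were called, 2.84% lower and 2.15% higher. The 13 were PDZK1, CXCL12, OLFM1, STC2, ELOVL2, CA12, HEY2, THBS1, SGK3, FKBP4, GREB1, PKIB and TPD52L1, and the 1 higher was TFF1. The estimate was below 0 for 30 of the 33, with a median log2FC of −0.71 against −0.08 over all genes tested. Without any overlap between the 3 libraries of each condition, 19 were lower, where this held for 15.3% of all genes, and 1 was higher, where it held for 9.0%. Without MC replicate 2, 17 were called lower and 1 higher, while the calls over all genes went from 833 to 1727.

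CMed gave fewer calls against MC, with 6 genes lower (PDZK1, THBS1, ELOVL2, OLFM1, STC2 and CA12) and TFF1 higher. Over all genes, 1.38% were called, 0.677% lower and 0.707% higher. The median log2FC of the 33 was −0.28, against −0.10 over all genes, and 21 estimates were below 0. Libraries did not overlap for 12 genes that were lower and 3 that were higher, where this held for 14.2% and 6.67% of all genes. These counts turned on single libraries. Without MC replicate 2, 8 were called lower and 4 higher, and 3 were called lower without CC replicate 3, MC replicate 1 or any 1 of the CMed libraries. The calls over all genes moved as well, from 231 to 1013 without MC replicate 2 and to 72 to 105 in the other fits named. The 2 comparisons share the MC libraries, so their values are given side by side and no agreement between them is read.

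**Figure D2:**
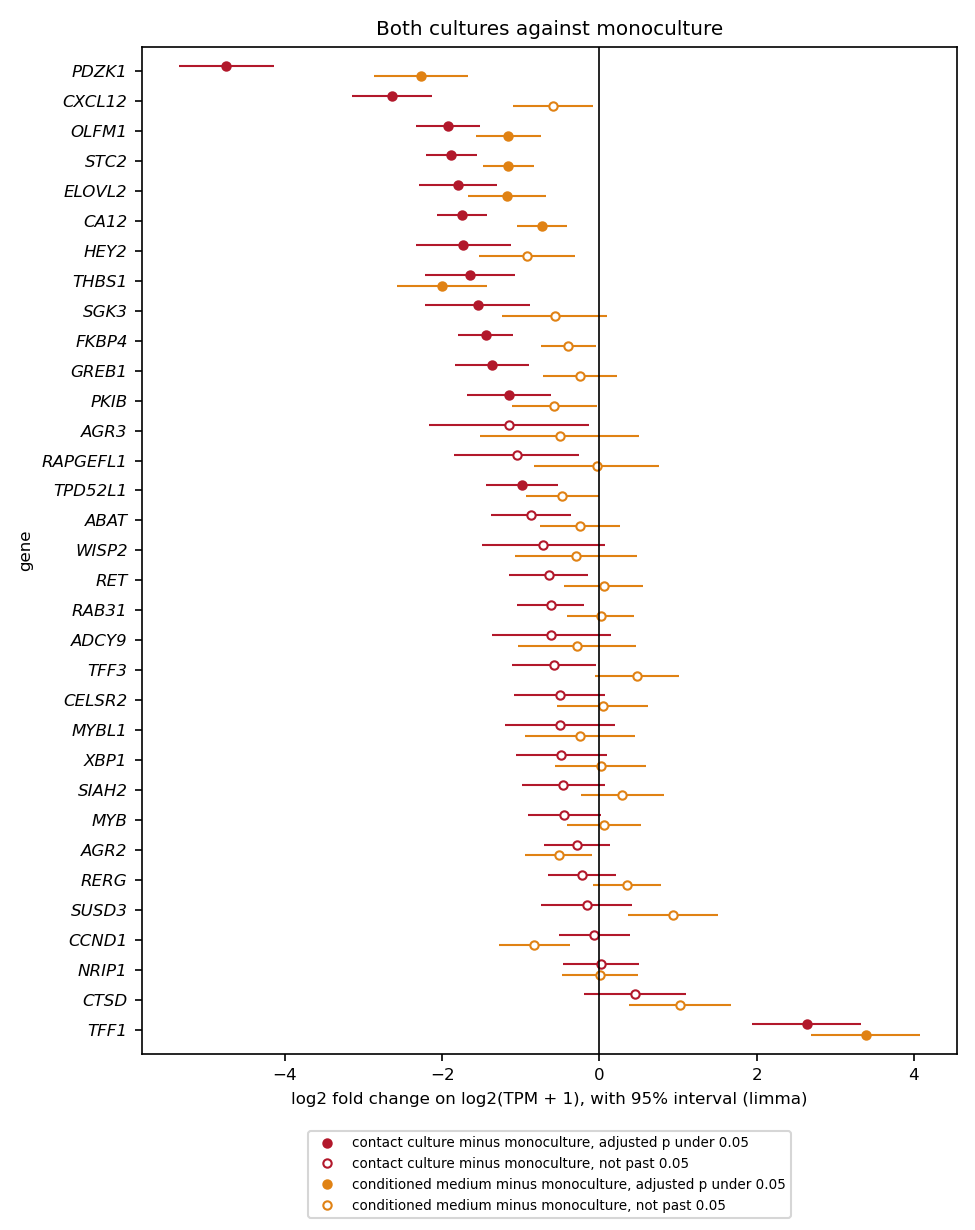
Log2 fold changes on log2(TPM + 1) with 95% intervals from limma (horizontal axis) for the 33 genes tested (vertical axis), in contact culture (red) and in conditioned medium (orange), each against monoculture. Filled points are past an adjusted p of 0.05. In contact culture 13 filled points lie left of 0 and 1, TFF1, lies right of it, and in conditioned medium 6 lie left and 1 right.

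The direct comparison of CC with CMed sets the 2 ways of exposing T47D cells to HS5 cells against each other. Bead recovery, described for co-cultures only, is confounded with this difference. Of the 33 genes, 4 were called lower in CC than in CMed (CXCL12, PDZK1, CA12 and FKBP4) and none higher, where 0.371% of all genes were called, 0.162% lower and 0.21% higher. At an unadjusted limma p under 0.05, a looser threshold, 22 were lower and 1 higher. The shares above do not apply to that threshold, and its share over all genes was not worked out. The estimate was below 0 for 29 of 33, with a median of −0.64 against 0.0006 over all genes. Libraries did not overlap for 20 genes that were lower and 3 that were higher, where this held for 9.93% and 12.4% of all genes. The count of 4 became 8 without MC replicate 2, 1 without CMed replicate 3, and 2 without CC replicates 1 or 3, CMed replicates 1 or 2, or MC replicate 3. Over all genes, the count of 62 became 208, 18 and 15 to 43 in the same fits, in that order. For 9 of the 33 genes (PDZK1, CXCL12, STC2, CA12, OLFM1, FKBP4, HEY2, SGK3 and ELOVL2) every CC library lay below every CMed library and these below every MC, an order that 1.65% of all genes showed. This is a description and was not tested as such.

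Among membrane, transport and metabolic proteins, PDZK1 showed the largest fall. PDZK1 (ENSG00000174827.13, chromosome 1 of GRCh38 from 145670852 to 145708148, minus strand) encodes a scaffold that holds transporters and receptors at the membrane. It was at 5.39, 3.11 and 3.80 TPM in CC, 26.5, 27.8 and 26.2 TPM in CMed and 175, 88.1 and 153 TPM in MC. The 3 conditions did not overlap. The log2FC was −4.74 in CC against MC (SE 0.27, limma adjusted p = 2.45e-05), the lowest of the 16696 genes tested, and the mean TPM was 33.9-fold lower. In CMed it was −2.27 against MC (adjusted p = 0.0045), a mean 5.18-fold lower. CC was lower than CMed by a mean 6.54-fold (log2FC −2.47, adjusted p = 0.00695), and all 3 calls held in each of 9 leave-one-out fits, in which 1 library was omitted. The nearly identical pseudogene PDZK1P1 was listed at no more than 0.538 TPM in any library, so that few reads were assigned to it.

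CA12 (ENSG00000074410.13, chromosome 15 from 63321378 to 63382161, minus strand), a carbonic anhydrase of the cell surface, was at 30.1, 35.6 and 34.0 TPM in CC, 69.0, 67.0 and 69.5 TPM in CMed and 107, 128 and 108 TPM in MC. The libraries of each condition lay close together and those of different conditions apart. It was 3.44-fold lower in CC than in MC (log2FC −1.75, SE 0.14, limma adjusted p = 2.37e-04). The differences between CMed and MC (−0.72, adjusted p = 0.0445) and between CC and CMed (−1.02, adjusted p = 0.0234) were past the threshold in 2 and 3 of the 9 leave-one-out fits, with adjusted p up to 0.181 and 0.17, both without CMed replicate 1. The first was not past it with relative log expression scaling either (adjusted p = 0.103).

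ELOVL2 (chromosome 6 from 10980759 to 11044314), an elongase of long polyunsaturated fatty acids, was at 0.417, 0.642 and 0.578 TPM in CC, 1.10, 1.21 and 1.87 TPM in CMed and 4.75, 3.65 and 4.70 TPM in MC. Levels were low throughout, and the conditions did not overlap. The log2FC was −1.79 in CC (adjusted p = 0.00258) and −1.17 in CMed (adjusted p = 0.0391), each against MC, and the second was past the threshold only without MC replicate 2 among the 9 leave-one-out fits (adjusted p up to 0.167). It also missed the threshold with a pseudocount of 0.1 (0.0655) and after relative log expression scaling (0.0564). ABAT, the enzyme that degrades the transmitter GABA, was at 2.97, 2.76 and 2.35 TPM in CC, 4.88, 3.58 and 5.74 TPM in CMed and 6.49, 4.32 and 6.55 TPM in MC. Its CC libraries lay below all others without passing the threshold against MC (log2FC −0.86, adjusted p = 0.0627, but 0.0217 without MC replicate 2). CELSR2, a cadherin of planar cell polarity, overlapped between CC (0.921 to 1.74 TPM) and MC (1.41 to 2.66 TPM).

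SUSD3, a membrane protein, had another order of conditions. It was at 10.4, 5.96 and 8.04 TPM in CC, 19.1, 18.9 and 16.5 TPM in CMed and 8.48, 12.7 and 6.66 TPM in MC. CMed lay above both other conditions, but its difference from MC was not past the threshold (log2FC 0.94, adjusted p = 0.126, and 0.0259 without MC replicate 2). The potassium channel gene KCNK5, below the filter, was listed at 0.0637, 0 and 0.0771 TPM in CC, 0.0585, 0.107 and 0 TPM in CMed and 0.195, 0.803 and 0.0851 TPM in MC.

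**Figure D3:**
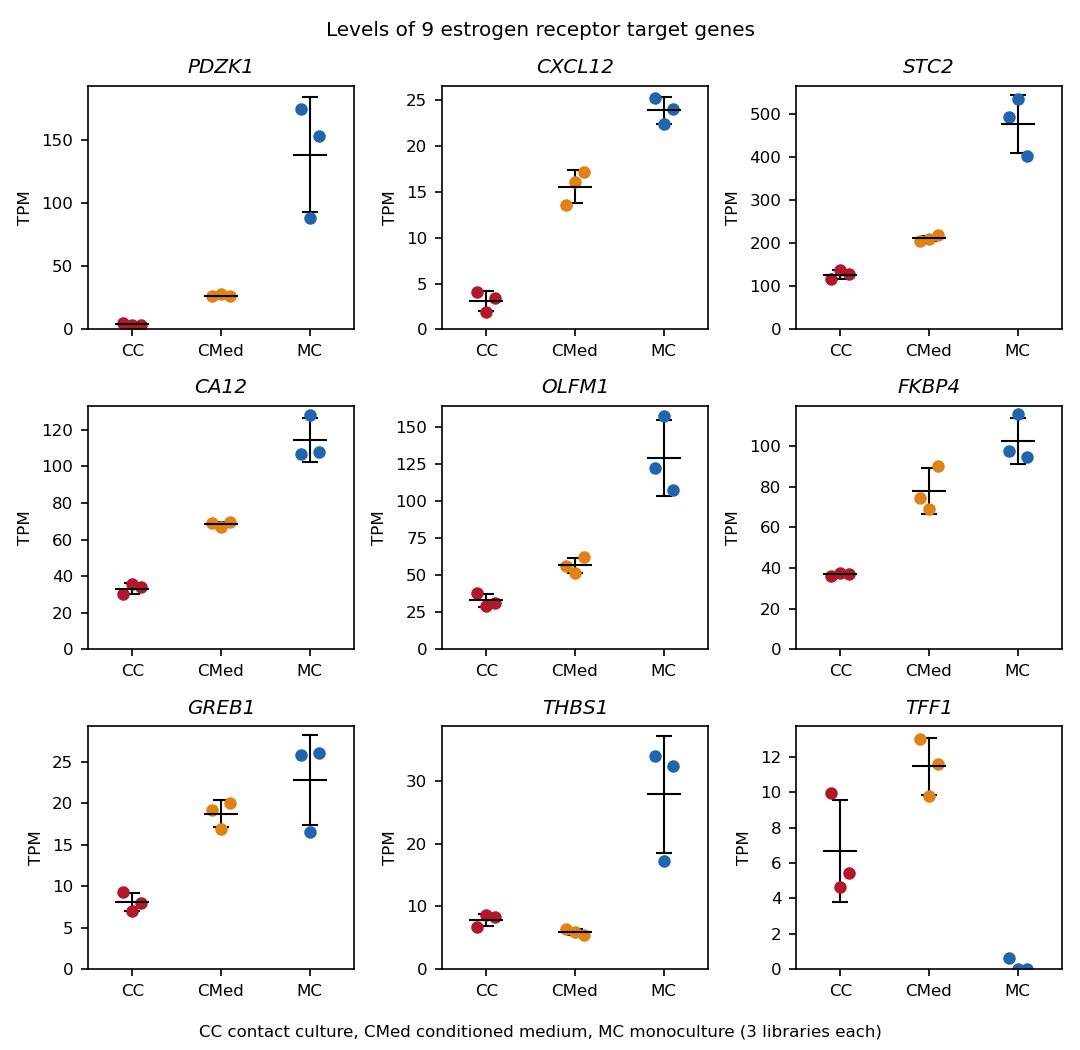
TPM (vertical axes, linear and starting at 0) of 9 genes in contact culture (CC), conditioned medium (CMed) and monoculture (MC). Points are libraries, and bars give the mean and SD of the 3, left out for the TFF1 monocultures because some are listed at 0. PDZK1, CXCL12, STC2, CA12, OLFM1 and FKBP4 step up from contact culture to monoculture, THBS1 is at 5.48 to 8.60 TPM in both cultures exposed to HS5 cells, and TFF1 is at 0 to 0.658 TPM in monoculture.

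Among secreted proteins and proteins of the secretory route, CXCL12, STC2, OLFM1 and THBS1 were lower in CC than in MC, and TFF1 was higher. CXCL12 (ENSG00000107562.16, chromosome 10 from 44370165 to 44386493, minus strand) encodes a chemokine that is also made in quantity by bone marrow stromal cells. It was at 4.05, 1.85 and 3.43 TPM in CC, 13.5, 16.1 and 17.1 TPM in CMed and 25.3, 22.4 and 24.1 TPM in MC. CC was the lowest, and CMed lay nearer to MC. It was 7.68-fold lower in CC than in MC (log2FC −2.64, SE 0.23, limma adjusted p = 3.71e-04). CC was also 5.01-fold lower than CMed (−2.05, adjusted p = 0.00695), a call that missed the threshold without CMed replicate 3 (0.0503), whereas CMed against MC was not past it (−0.59, adjusted p = 0.253). The stromal markers summed highest in the same CC libraries. No library of HS5 cells alone was in this set, and the part of CXCL12 that came from stromal cells was not tested.

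STC2 (ENSG00000113739.10, chromosome 5 from 173314713 to 173329503, minus strand), the glycoprotein stanniocalcin, was among the most abundant of the set, at 117, 138 and 128 TPM in CC, 206, 211 and 218 TPM in CMed and 493, 534 and 402 TPM in MC. The conditions did not overlap. It was 3.74-fold lower in CC (log2FC −1.89, SE 0.14, adjusted p = 1.96e-04) and 2.25-fold lower in CMed (−1.16, adjusted p = 0.00611), each against MC. CC against CMed missed the threshold (−0.73, limma adjusted p = 0.0845), but not without MC replicate 2 (0.0313).

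OLFM1 (ENSG00000130558.19, chromosome 9 from 135075422 to 135121179), an olfactomedin glycoprotein, was at 38.2, 29.5 and 31.6 TPM in CC, 56.3, 51.9 and 62.2 TPM in CMed and 123, 158 and 108 TPM in MC, again without overlap. Its log2FC was −1.92 in CC (adjusted p = 6.71e-04) and −1.16 in CMed (adjusted p = 0.0179), each against MC. The second was past the threshold in 4 of the 9 leave-one-out fits, and its adjusted p reached 0.107 without CMed replicate 1. CC against CMed was −0.77 (limma adjusted p = 0.137, and 0.0495 without MC replicate 2).

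THBS1 (ENSG00000137801.10, chromosome 15 from 39581079 to 39599466), the matrix glycoprotein thrombospondin, is likewise known from stromal cells. It was at 6.77, 8.60 and 8.25 TPM in CC, 6.40, 5.95 and 5.48 TPM in CMed and 34.0, 17.2 and 32.3 TPM in MC. Both cultures exposed to HS5 cells lay below MC, and CMed was the lowest. The log2FC was −1.65 in CC (SE 0.25, adjusted p = 0.00882) and −2.00 in CMed (adjusted p = 0.00682), each against MC, and the difference between CC and CMed was 0.35 (limma adjusted p = 0.64).

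TFF1 (ENSG00000160182.2, chromosome 21 from 42362282 to 42366594, minus strand), a trefoil peptide of the mucosa, is among the best known estrogen-induced transcripts of breast cancer cells. It was at 9.97, 4.62 and 5.45 TPM in CC, 13.0, 9.76 and 11.6 TPM in CMed and 0.658, 0 and 0 TPM in MC. Every library exposed to HS5 cells or their medium lay above every MC, 2 of which listed the gene at 0 although estradiol was present. The log2FC was 2.64 in CC (SE 0.31, limma adjusted p = 0.00198) and 3.39 in CMed (SE 0.31, adjusted p = 9.4e-04), each against MC, and both calls held in all 9 leave-one-out fits. No ratio is given because of the zeros.

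Its neighbour TFF3 (chromosome 21 from 42311667 to 42315651), another trefoil peptide, did not show the same step. It was at 80.1, 94.1 and 88.4 TPM in CC, 187, 160 and 203 TPM in CMed and 100.2, 195 and 113 TPM in MC. CC was the lowest of the 3 conditions, with log2FC of −0.57 against MC (adjusted p = 0.217) and −1.06 against CMed (adjusted p = 0.123), neither past the threshold. The second was past it without MC replicate 2 (adjusted p = 0.0121) and with only CC and CMed in the fit (limma adjusted p = 0.0352). CMed against MC was 0.48 (adjusted p = 0.366), and 0.77 (limma adjusted p = 0.0239) without MC replicate 2.

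CTSD, the lysosomal protease cathepsin D, was at 81.7, 38.6 and 58.8 TPM in CC, 87.9, 78.1 and 89.5 TPM in CMed and 37.2, 58.0 and 32.8 TPM in MC. CMed lay above MC without overlap, at a log2FC of 1.02 (adjusted p = 0.135, and 0.0375 without MC replicate 2). AGR2 and AGR3, disulfide isomerases of the secretory route encoded side by side on chromosome 7, overlapped between CC and MC. AGR2 was at 390 to 411 TPM in CC, 333 to 358 TPM in CMed and 353 to 594 TPM in MC, where replicate 2 alone lay below CC, and without that library was called lower in CC (log2FC −0.52, adjusted p = 0.0196) and in CMed (−0.75, limma adjusted p = 0.0078), each against MC. AGR3 was at 55.8, 23.5 and 39.3 TPM in CC, 61.4, 40.4 and 82.4 TPM in CMed and 115, 43.0 and 119 TPM in MC. Its log2FC in CC against MC was −1.15, not past the threshold (adjusted p = 0.19), but it was called lower without MC replicate 2 (−1.62, limma adjusted p = 0.0348). WISP2, a matricellular protein, was at 1.03 to 1.41 TPM in CC, 1.55 to 2.09 TPM in CMed and 1.32 to 5.29 TPM in MC, and was not called in any comparison.

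Among transcription regulators, GREB1 and HEY2 were lower in CC, and none of the 6 tested was called in CMed against MC by limma (1 lower at an unadjusted p under 0.05). GREB1 (ENSG00000196208.13, chromosome 2 from 11482341 to 11642788), a cofactor that binds the estrogen receptor itself, was at 9.30, 7.05 and 8.04 TPM in CC, 19.2, 17.0 and 20.1 TPM in CMed and 25.8, 16.6 and 26.1 TPM in MC. CC lay below both other conditions, which overlapped. It was 2.81-fold lower in CC than in MC (log2FC −1.36, SE 0.21, limma adjusted p = 0.0081), while CMed against MC was −0.25 (adjusted p = 0.614) and CC against CMed was −1.12 (adjusted p = 0.069, but 0.0137 without MC replicate 2 and 0.0402 with only CC and CMed in the fit).

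HEY2, a repressor downstream of Notch, was at 1.25, 0.738 and 1.51 TPM in CC, 3.44, 1.77 and 3.31 TPM in CMed and 5.36, 7.98 and 5.25 TPM in MC. The conditions did not overlap, at low levels. Its log2FC in CC against MC was −1.73 (adjusted p = 0.0089), and that in CMed was −0.92 (limma adjusted p = 0.148).

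MYB, the proto-oncogene of luminal tumours, was at 1.83, 2.39 and 1.81 TPM in CC, 2.81, 3.37 and 3.62 TPM in CMed and 2.43, 3.28 and 3.62 TPM in MC. CC lay just below the others, by a log2FC of −0.44 against MC that was not past the threshold (adjusted p = 0.271). Its relative MYBL1 overlapped between all conditions, with MC replicate 2 at 18.2 TPM and the other MC libraries at 46.3 and 38.6 TPM, and was called lower in CC than in MC without that replicate (log2FC −0.89, limma adjusted p = 0.0221). XBP1, a transcription factor of the unfolded protein response, was at 118 to 229 TPM in CC, 214 to 258 TPM in CMed and 201 to 313 TPM in MC and was not called. NRIP1, a corepressor of the receptor, differed by 0.02 in CC and 0.01 in CMed from MC on the log2 scale, with 95% intervals of −0.47 to 0.50 and −0.47 to 0.49. The early response factor EGR3, below the filter, was listed at 0.0547, 0 and 0 TPM in CC, 0.0503, 0.0461 and 0.164 TPM in CMed and 1.17, 0.0986 and 1.10 TPM in MC.

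Among signalling and cell cycle proteins, FKBP4, SGK3, PKIB and TPD52L1 were called lower in CC than in MC, and all 11 estimates were below 0. FKBP4 (ENSG00000004478.7, chromosome 12 from 2794953 to 2805423), a cochaperone of steroid receptors, was at 36.2, 37.5 and 37.1 TPM in CC, 74.6, 68.9 and 90.4 TPM in CMed and 97.4, 116 and 94.6 TPM in MC. The 3 CC libraries were nearly alike and far below the rest. It was 2.78-fold lower in CC than in MC (log2FC −1.44, SE 0.15, limma adjusted p = 0.00127). Against CMed its log2FC was −1.05 (adjusted p = 0.034), a call past the threshold only without MC replicate 2 among the 9 leave-one-out fits (adjusted p up to 0.178).

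SGK3, a kinase of the PI3K route, was at 8.26, 18.0 and 10.3 TPM in CC, 28.8, 18.8 and 24.7 TPM in CMed and 30.6, 47.6 and 31.2 TPM in MC. CC lay lowest, with replicate 2 close to CMed. The log2FC against MC was −1.55 (limma adjusted p = 0.0205), but the adjusted p was 0.0668, 0.0958, 0.0517 and 0.0527 without CC replicates 1 and 3 and MC replicates 1 and 3. RefSeq also lists a read-through gene that joins SGK3 to its neighbour, and reads may be split between the 2.

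PKIB, an inhibitor of protein kinase A, was at 5.24, 3.64 and 3.67 TPM in CC, 6.66, 5.20 and 8.50 TPM in CMed and 13.1, 10.1 and 8.46 TPM in MC. CC lay below MC, and CMed overlapped both by its lowest and highest library. The log2FC was −1.15 (limma adjusted p = 0.0273), past the threshold in 5 of the 9 leave-one-out fits, with an adjusted p of 0.12 without CC replicate 3 and of 0.0774, 0.0524 and 0.097 without CC replicate 2, CMed replicate 1 and MC replicate 1.

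TPD52L1, a coiled-coil protein of vesicle traffic, was at 37.1, 22.3 and 28.9 TPM in CC, 44.1, 35.8 and 45.7 TPM in CMed and 56.8, 52.6 and 65.4 TPM in MC. Both exposed cultures lay below MC. The log2FC in CC was −0.99 (limma adjusted p = 0.0276), past the threshold in 4 of the 9 leave-one-out fits. It missed it without CC replicates 2 (0.0659) and 3 (0.112), CMed replicate 1 (0.0531) and MC replicates 1 (0.0827) and 3 (0.0954). PKIB and TPD52L1 were also not past it with upper quartile scaling (adjusted p = 0.0751 and 0.11).

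RET, RAB31 and RAPGEFL1 were lower in CC without overlap but not past the threshold. The receptor tyrosine kinase RET was at 0.447, 0.306 and 0.928 TPM in CC, 1.72, 1.34 and 1.47 TPM in CMed and 1.37, 1.41 and 1.44 TPM in MC (log2FC of CC against MC −0.65, limma adjusted p = 0.14). RAB31, a small GTPase of endosomes, was at 7.34, 9.02 and 8.29 TPM in CC, 14.1, 12.5 and 13.3 TPM in CMed and 11.6, 16.8 and 11.6 TPM in MC (−0.62, adjusted p = 0.0988). RAPGEFL1, related to exchange factors of small GTPases, was at 0.351, 0.439 and 0.722 TPM in CC, 0.707, 2.53 and 3.61 TPM in CMed and 1.65, 2.28 and 2.43 TPM in MC (−1.05, adjusted p = 0.132). In the 3 genes CMed lay near MC, with estimates of 0.06, 0.02 and −0.03 on the log2 scale.

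CCND1, the cyclin that drives entry into the cell cycle, had a different order of conditions. It was at 21.5, 28.3 and 26.7 TPM in CC, 15.2, 13.5 and 15.1 TPM in CMed and 28.6, 20.4 and 32.1 TPM in MC. CMed lay below both others. Its log2FC against MC was −0.83 (limma adjusted p = 0.0897, and 0.0134 without MC replicate 2). CC differed from MC by −0.06 (95% interval −0.51 to 0.38), with a sign that turned under relative log expression scaling (0.06) and upper quartile scaling (0.19). The remaining 3 of this group were not called in any comparison, the ubiquitin ligase gene SIAH2, the growth-inhibiting Ras relative RERG and the adenylate cyclase gene ADCY9. SIAH2 was at 8.65 to 13.0 TPM in CC, 14.1 to 22.7 TPM in CMed and 12.5 to 18.1 TPM in MC. RERG was at 17.9 to 23.0 TPM in CC, 26.8 to 32.9 TPM in CMed and 18.7 to 28.2 TPM in MC.

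The summed level of the 35 genes, carried largely by AGR2, STC2 and XBP1, was 1122 to 1309 TPM in CC, 1548 to 1743 TPM in CMed and 2313 to 2419 TPM in MC. The range of the sum shows no overlap between the conditions, and it follows the abundant genes.

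The receptor and its partners were examined next to their targets. ESR1, which encodes the estrogen receptor, was at 6.32, 23.2 and 17.1 TPM in CC, 14.4, 23.0 and 21.3 TPM in CMed and 20.2, 42.6 and 20.6 TPM in MC. The conditions overlapped, with CC replicate 2 above 2 of the 3 MC libraries. The log2FC was −0.88 in CC (limma adjusted p = 0.315) and −0.43 in CMed (adjusted p = 0.693), each against MC, so that a difference in receptor transcript was not resolved with these libraries. FOXA1, the pioneer factor, was at 47.7, 19.9 and 27.1 TPM in CC, 37.8, 31.4 and 59.5 TPM in CMed and 54.7, 24.5 and 56.6 TPM in MC (−0.51 in CC, adjusted p = 0.545). Of 15 tested genes of the receptor and its cofactors, GATA3 alone was called in CC against MC (6.67%, near the 4.99% of all genes). GATA3 was at 463, 562 and 499 TPM in CC against 936, 1079.8 and 886 TPM in MC (−0.93, limma adjusted p = 0.00584). CMed lay between them at 700, 667 and 763 TPM.

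**Figure D4:**
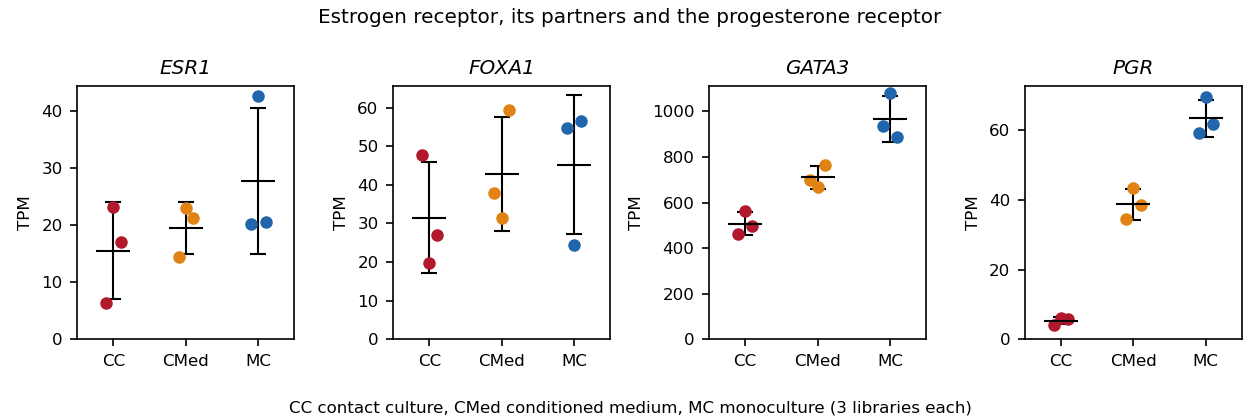
TPM (vertical axes, linear and starting at 0) of ESR1, FOXA1, GATA3 and PGR in contact culture (CC), conditioned medium (CMed) and monoculture (MC). Points are libraries, and bars give the mean and SD of the 3. ESR1 and FOXA1 overlap between the conditions, whereas the 3 conditions are apart for GATA3 and for PGR, which is at 4.14 to 6.08 TPM in contact culture.

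Of 41 tested genes on a further list of estrogen-induced genes, 10 were called lower and 3 (TSKU, TGM2 and FHL2) higher in CC than in MC, against the 2.84% and 2.15% of all genes given above, with a median log2FC of −0.56. In CMed NPY1R, a receptor of neuropeptide Y, was lower and TGM2 higher than in MC, where 1.38% of all genes were called. In CC PGR and TGM2 were lower than in CMed and none was higher, where 0.371% of all genes were called. At an unadjusted limma p under 0.05, 12 of the list were lower in CC than in CMed and 4 higher. No share over all genes was worked out for that threshold. PGR, the progesterone receptor, was at 4.14, 6.08 and 5.76 TPM in CC, 34.4, 43.3 and 38.6 TPM in CMed and 59.0, 69.3 and 61.7 TPM in MC. SLC9A3R1 encodes NHERF, a scaffold with PDZ domains like PDZK1. It was at 72.7, 64.2 and 61.3 TPM in CC, 90.9, 94.5 and 99.6 TPM in CMed and 141, 210 and 161 TPM in MC (log2FC −1.34 in CC, adjusted p = 0.00299). MAPT, the microtubule protein tau, was at 1.35 to 1.51 TPM in CC and 5.48 to 12.0 TPM in MC (−2.06, adjusted p = 0.00384), and the retinoic acid receptor gene RARA was at 8.57 to 11.7 TPM in CC and 21.2 to 33.8 TPM in MC (−1.36, adjusted p = 0.0125). KDM4B, a histone demethylase, was at 8.14 to 9.33 TPM in CC and 15.9 to 23.1 TPM in MC (−1.04, adjusted p = 0.0126). TSKU, a secreted leucine-rich repeat protein, was higher, at 23.1, 11.5 and 19.0 TPM in CC against 1.98, 3.14 and 3.19 TPM in MC (2.29, limma adjusted p = 0.0022). TGM2, a transglutaminase named here after its values were seen, was higher than in MC (0.363 to 1.22 TPM) both in CC (3.13 to 3.62 TPM) and in CMed (11.7 to 14.7 TPM). Of 4 tested estrogen-repressed genes and 13 proliferation genes, none was called in any of the comparisons by limma. In CC against MC, 1 estrogen-repressed gene was higher and 3 proliferation genes were lower at an unadjusted p under 0.05.

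Promoter sequences were taken from RefSeq (GRCh38.p14) for the 250 bases before each start site, with matches for 24 of the 35 genes in 36 windows. The arms GGTCA and TGACC with any 3 bases between them, a form of the estrogen response element, were in none of the 36 windows and in 0.0399% of all 35116. The arm GGTCA alone, on either strand and thus also counted within the full element, was in 13 of the 36 windows (36.1%, 11 genes), near the 32.6% of all windows. Shown are windows, 1 for each gene, of the 3 genes with an entry among the 4 called lower in CC than in both other conditions (PDZK1, CXCL12 and CA12), and that of CTSD, whose estimates against MC lay above 0 and whose window holds 3 arms. Capitals mark GGTCA or its reverse complement TGACC. A match is only a run of letters, and the absence of one says nothing of binding further away.
PDZK1, chr1:145707401-145707650, minus strand: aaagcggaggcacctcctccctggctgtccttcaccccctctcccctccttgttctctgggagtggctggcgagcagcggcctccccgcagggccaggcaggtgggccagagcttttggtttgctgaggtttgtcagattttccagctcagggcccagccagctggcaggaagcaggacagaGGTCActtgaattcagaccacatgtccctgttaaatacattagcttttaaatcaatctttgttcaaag
CXCL12, chr10:44385098-44385347, minus strand: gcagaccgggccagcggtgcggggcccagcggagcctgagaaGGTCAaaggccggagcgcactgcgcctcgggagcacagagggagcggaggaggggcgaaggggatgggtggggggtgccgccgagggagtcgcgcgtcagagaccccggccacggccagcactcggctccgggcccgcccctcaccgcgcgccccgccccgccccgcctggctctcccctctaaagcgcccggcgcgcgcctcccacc
CA12, chr15:63381847-63382096, minus strand: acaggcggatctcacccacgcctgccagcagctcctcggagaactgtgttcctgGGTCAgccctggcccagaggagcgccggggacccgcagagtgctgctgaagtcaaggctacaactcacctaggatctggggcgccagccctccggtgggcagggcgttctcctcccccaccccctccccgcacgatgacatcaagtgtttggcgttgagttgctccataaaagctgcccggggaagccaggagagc
CTSD, chr11:1763928-1764177, minus strand: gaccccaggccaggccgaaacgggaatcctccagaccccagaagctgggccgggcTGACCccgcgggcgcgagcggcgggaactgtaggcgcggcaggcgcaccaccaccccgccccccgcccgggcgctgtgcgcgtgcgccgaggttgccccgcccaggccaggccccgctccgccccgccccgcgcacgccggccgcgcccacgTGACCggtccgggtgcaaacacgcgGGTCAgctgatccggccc
PDZK1 has 2 windows, both with the arm, of which 1 is printed. The first base of the match lies 68 bases before the start site in that window of PDZK1, 208 in CXCL12 and 196 in CA12, and in CTSD at 195, 43 and 18 bases. The arm was present in PDZK1, CXCL12 and CA12, which were lower in CC, and in CTSD, which was not called. Its position differed between them. It was absent from every window of STC2, THBS1, OLFM1, HEY2, PKIB, TPD52L1 and ELOVL2, also called lower in CC than in MC. SGK3, FKBP4 and GREB1, the other genes called lower, had no window.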

How the data were processed

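Total RNA of T47D cells was sequenced as 9 libraries in paired ends of 100 bp. Trim Galore 0.5.0 and STAR 2.6.0 are listed in the processing notes of the submitters. Build, annotation and quantifier were not given in the sources used here. The authors deposited 1 value per gene symbol and library, taken here as a natural log, ln(TPM + 1), since returned to TPM the libraries sum to 884208 to 909618. TPM keeps no read depth, so counting error is unknown.

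Rows named by an RNA family (160) were left out and repeated symbols (481) summed. Genes that reached a TPM of 0.5 in 3 or more libraries were tested as log2(TPM + 1), with a pseudocount of 1, in limma 3.58.1 (R 4.3.3), with a trend, robust moderation and all 9 libraries in 1 fit, 2-sided. Limma on this scale was set in the design, because the values were TPM and not read counts. The fit was tested on simulated data. The tables were made in Python 3.11.15 with numpy 2.4.6 and pandas 2.3.3, and the plots with matplotlib 3.10.9. Gene positions came from GENCODE on GRCh38 by symbol.

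The 35 genes, their role groups and the other lists were chosen with earlier results of these data known. Values of every library are given for genes called in any comparison or not overlapping between contact culture and monoculture, up to 10 others by values or range, and up to 6 genes of each other list by lowest adjusted p in contact culture. Alternatives were pseudocounts of 0.1 and 5, other scalings and filters, fits of 2 conditions, the replicate number as a block, criteria on the fold change and each library left out.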

Additional observations from a re-analysis of the deposited data

How the results depend on the processing

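Relative to each main count, all genes changed in contact culture against monoculture (833) numbered 520 without the filter, 319 with only the 2 conditions compared and 131 with a log2 fold change of at least 2 as well, and 244 to 1727 when 1 library was left out. In conditioned medium against monoculture (231) they numbered 125, 111, 75 and 72 to 1013, and in contact culture against conditioned medium (62) they numbered 28, 97, 18 and 15 to 208. The members called lower were 10 to 17 for contact culture against monoculture, 3 to 8 for conditioned medium against monoculture, and 1 to 8 between contact culture and conditioned medium, when 1 library was left out. The members called higher were 1, 1 to 4 and 0 in the same fits. With a log2 fold change of at least 2 as well, 2, 1 and 2 were called lower, and with only the 2 conditions compared 3 were called lower in conditioned medium against monoculture. TFF1 and, in contact culture against monoculture, PDZK1, CXCL12, STC2, OLFM1, THBS1, CA12, FKBP4, ELOVL2, GREB1 and HEY2 were past the threshold in every fit with another pseudocount, scaling, filter or library left out. The pseudocounts of 0.1 and 5 left 13 members lower in contact culture against monoculture, as did relative log expression scaling, a filter at a TPM of 1 and leaving out mitochondrial and ribosomal RNA, an alternative chosen after seeing the data.

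The share of mitochondrial and ribosomal RNA was 23.4% to 26.1% in the contact cultures, 21.5% to 22.4% with conditioned medium and 16.7% to 20.5% in monoculture. Scaling moved the split of all calls. In contact culture against monoculture it was 359 higher and 474 lower as reported, 440 and 301 after relative log expression scaling, 681 and 210 after upper quartile scaling, and 413 and 328 once mitochondrial and ribosomal RNA were left out. In the same sequence, it was 118 and 113, 146 and 53, 153 and 32, and 119 and 72 in conditioned medium against monoculture, and 35 and 27, 37 and 31, 58 and 30, and 38 and 19 in contact culture against conditioned medium. Upper quartile scaling moved the median of all genes in contact culture against monoculture from −0.08 to 0.11, and 11 members were still called lower.

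The replicate numbers did not pair the libraries (r of same-numbered deviations −0.04 to 0.11 over 9 pairs). With the number as a replicate block, 509, 102 and 22 genes changed in contact culture against monoculture, conditioned medium against monoculture and contact culture against conditioned medium, with 14, 3 and 2 members lower.

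Signs turned only in members that were not called. In contact culture against monoculture these were CCND1 (0.061 with relative log expression scaling, 0.19 with upper quartile scaling, 0.033 without mitochondrial and ribosomal RNA, −0.25 to 0.068 when 1 library was left out), RERG and SUSD3 with upper quartile scaling (0.036 and 0.082), and NRIP1 (−0.081 to 0.13) and SUSD3 (−0.35 to 0.070) when 1 library was left out. In conditioned medium against monoculture RAPGEFL1 turned with a pseudocount of 5 (0.014), relative log expression scaling (0.059) and upper quartile scaling (0.11). With 1 library left out, the ranges were −0.34 to 0.38 for RAPGEFL1, −0.10 to 0.22 for XBP1, −0.11 to 0.22 for NRIP1, −0.0022 to 0.11 for RET, −0.067 to 0.18 for RAB31, −0.15 to 0.15 for CELSR2, −0.064 to 0.15 for MYB, −0.64 to 0.011 for MYBL1, −0.59 to 0.061 for ADCY9 and −0.59 to 0.12 for WISP2. In contact culture against conditioned medium NRIP1 was −0.0079 with relative log expression scaling and −0.21 to 0.13 when 1 library was left out. The cause was not tested for any of these. TPM keeps no depth, so the error of values near 0, such as those of EGR3, KCNK5, RET and ELOVL2, could not be given, and 3 libraries per condition limit the precision of every estimate.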
